A study of Mus musculus with 6 samples.

Results

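The conjugation enzymes and carboxylesterases of the mouse testis were read as 5 gene families on exon arrays: cytosolic glutathione S-transferases (Gst), microsomal glutathione S-transferases (Mgst), UDP-glucuronosyltransferases (Ugt), sulfotransferases (Sult) and carboxylesterases (Ces). A gene was a member when its current symbol began with Gsta, Gstm, Gsto, Gstp, Gstt, Gstk, Mgst, Ugt1, Ugt2, Sult or Ces with a digit and at least 3 probe sets were annotated to that symbol alone. This gave 50 members among the 15207 genes with at least 3 such probe sets. They were 17 Gst, 2 Mgst, 8 Ugt, 11 Sult and 12 Ces genes. Another 6 genes of these families had fewer than 3 probe sets of their own, and 30 had none. For 3 members the array carries an older symbol that now belongs to more than 1 gene, and the array's symbol was kept: Ces2 (now Ces2c or Ces2h), Ces3 (now Ces1d or Ces3a) and Es31 (now Ces3a or Ces3b).

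Whole testes of wild-type mice at P21 (Wt P21, 3 arrays) were set against whole testes of adult mice homozygous for the Fn allele of Dazap1 (Fn adult, 3 arrays), all on a mixed C57BL/6 and 129 background. By the study, the Fn allele is a floxed allele that still holds its neo cassette and makes an aberrant DAZAP1 protein, most homozygotes die around birth, the survivors stay small, and their spermatogenesis stops before the meiotic divisions. Wt P21 and Fn adult differ both in genotype and in age, and the part of either in a difference cannot be told apart. The study gives the age of adult mice as a range of months, and the labels give no age for each Fn adult array. In whole testes, a lower level from fewer cells of a type cannot be told apart from less RNA per cell.

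These families make lipophilic compounds easier to excrete or inactivate. Glutathione S-transferases join glutathione to electrophiles, glucuronosyltransferases add glucuronic acid and sulfotransferases add sulfate, in the testis also to steroids. Carboxylesterases are serine hydrolases of the endoplasmic reticulum that split esters, drugs and lipids among them.

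Promoter sequences of the members were looked up in RefSeq (assembly GRCm38.p6, 250 bases before to 50 bases after each gene's start). Of the 50 members, 43 matched. Those of Sult1e1, Gsta3 and Mgst1 are shown because these genes rose and their families differ, and they run 5′ to 3′ along the gene. Capitals mark the core of the antioxidant response element, TGACNNNGC, the motif read by the stress factor Nrf2. Sult1e1 lies on the minus strand at chr5:87591562-87591861, Gsta3 on the plus strand at chr1:21240335-21240634, and Mgst1, the first of its promoters in the table, on the plus strand at chr6:138140277-138140576.
Sult1e1: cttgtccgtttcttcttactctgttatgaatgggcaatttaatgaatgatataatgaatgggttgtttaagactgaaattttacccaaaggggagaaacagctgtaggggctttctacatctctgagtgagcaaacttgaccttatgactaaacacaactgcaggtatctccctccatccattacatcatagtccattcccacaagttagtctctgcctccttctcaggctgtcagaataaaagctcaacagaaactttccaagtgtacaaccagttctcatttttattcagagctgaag
Gsta3: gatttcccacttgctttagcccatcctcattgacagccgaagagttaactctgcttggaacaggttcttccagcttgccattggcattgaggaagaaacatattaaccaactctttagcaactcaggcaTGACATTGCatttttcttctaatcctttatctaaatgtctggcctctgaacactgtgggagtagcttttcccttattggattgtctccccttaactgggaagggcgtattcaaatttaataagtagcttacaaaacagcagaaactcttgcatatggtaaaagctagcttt
Mgst1: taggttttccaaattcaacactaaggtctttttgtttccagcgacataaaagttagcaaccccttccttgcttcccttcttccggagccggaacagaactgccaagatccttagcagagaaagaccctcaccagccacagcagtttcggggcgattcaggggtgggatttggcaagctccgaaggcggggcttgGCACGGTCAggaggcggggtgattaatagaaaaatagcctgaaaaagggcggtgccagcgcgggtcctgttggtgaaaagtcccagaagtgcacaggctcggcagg

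The core was searched on both strands, and it shares the letters TGAC with the second motif below, read on the opposite strand. It began 121 bases before the start of Gsta3 and 56 bases before that of Mgst1, there on the opposite strand. Gstm5 and Gstm7 also held it, so that 4 of 43 members (9.30%) had the core, against 13.99% of the 27025 genes in the table. The motif CAAGGTCA, a site of the steroidogenic factor NR5A1, was found in 0 of 43 members and in 1.76% of all genes. A match is a description of the letters only.

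Array medians ran from 8.76 to 9.10 on the log2 scale and the lower quartiles of the probe sets from 7.36 to 7.56. No background level is known for these arrays, so genes under the lower quartile are given as differences with no fold. The median SD of a gene level was 0.21 among the Wt P21 arrays and 0.11 among the Fn adult arrays, over all genes. Dazap1 has no probe set in the annotation used and is not analysed here. The genotype labels therefore went unchecked. Of the other cells in a testis, 8 of 10 Leydig cell markers rose, with a mean log2 level of 9.99 to 10.42 in Wt P21 and 11.71 to 11.91 in Fn adult. Of 12 macrophage markers 8 rose, with mean levels of 8.56 to 8.65 and 9.29 to 9.33. Of 12 pachytene spermatocyte markers 2 fell, and their mean levels were 11.82 to 12.29 and 11.47 to 11.71. Of 11 Sertoli cell markers 4 rose and 1 fell, and their mean levels were 10.19 to 10.54 and 10.62 to 10.67. Of 14 spermatid markers 0 passed the limma test (3 at an unadjusted p under 0.05). Their mean level was 9.15 on Wt P21 replicate 3 against 8.27 and 8.35 on replicates 1 and 2, and 8.53 to 8.86 in Fn adult. Of 10 epididymis markers 0 passed the limma test (2 at an unadjusted p under 0.05, both lower), with a median difference of −0.17 and mean levels of 6.23 to 7.09 in Wt P21 and 6.03 to 6.16 in Fn adult. The largest difference among them was that of Crisp1, at 10.26, 8.74 and 4.301 on the Wt P21 arrays and at 4.03 to 4.70 on the Fn adult arrays (adjusted p = 0.12).

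The comparison asked which conjugation and esterase genes differ in level between the groups. A gene rose or fell where its Benjamini-Hochberg adjusted p in limma, over all 15207 genes, was under 0.05, and differences are Fn adult minus Wt P21 on the log2 scale. Of the 50 members, 14 rose, 2 fell and 34 did not pass. Over all genes tested, 8.98% passed, 8.07% upward and 0.914% downward. By family, 9 of 17 Gst, 1 of 2 Mgst, 0 of 8 Ugt, 3 of 11 Sult and 1 of 12 Ces genes rose, and both genes that fell were Ces. The families differ in brightness: 25 members, 8 Ugt, 7 Sult and 10 Ces, lay under the lower quartile on all 6 arrays. Of these, 1 rose and 2 fell, while 10 of the 20 members above it on all 6 arrays rose. The family counts therefore do not compare genes of like level. The mean level was higher in Fn adult for 30 of the 50 members, against 58.7% of all genes, and the median difference was 0.11 over the members and 0.07 over all genes. The groups did not overlap for 21 members, against 34.5% of all genes.

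**Figure D1:**
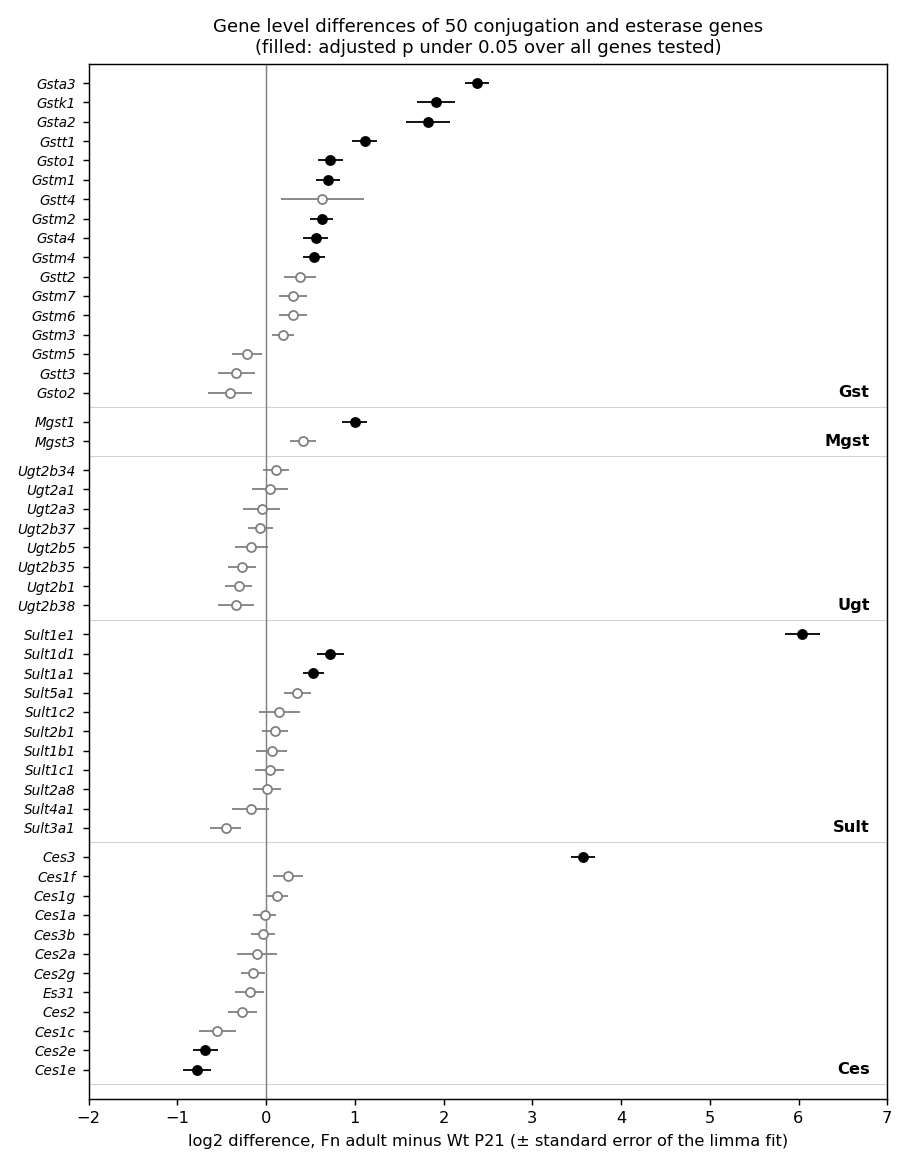
Log2 difference of the gene level, Fn adult minus Wt P21, for the 50 members by family, with the standard error of the limma fit as bars. Filled points passed an adjusted p of 0.05: Sult1e1 (6.04) and Ces3 (3.57) lie far to the right, the Gst genes mostly lie above 0, and no Ugt point is filled.

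Of these 16 calls, 7 held under each setting run for the gene, which included other normalizations and leaving out each array: Sult1e1, Ces3, Gsta3, Gstk1, Gsta2, Gstt1 and Mgst1. Gsta2 was run under 13 settings and the others under 15. The settings also included brightness filters on the mean of all 6 arrays. Sult1e1, Gsta2 and Ces3, under the lower quartile on all or most Wt P21 arrays, pass the gene filter through Fn adult. Their calls under it are therefore no further support. The other 9 were lost under at least 1 setting. With each array shifted to the same median, Gsta4, Gstm1, Gstm2, Gstm4, Sult1a1 and Sult1d1 did not pass (adjusted p 0.082 to 0.14), and after quantile normalization Gstm4, Sult1a1 and Sult1d1 did not (0.0504 to 0.13). None of the 16 changed sign under either scaling.

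**Figure D2:**
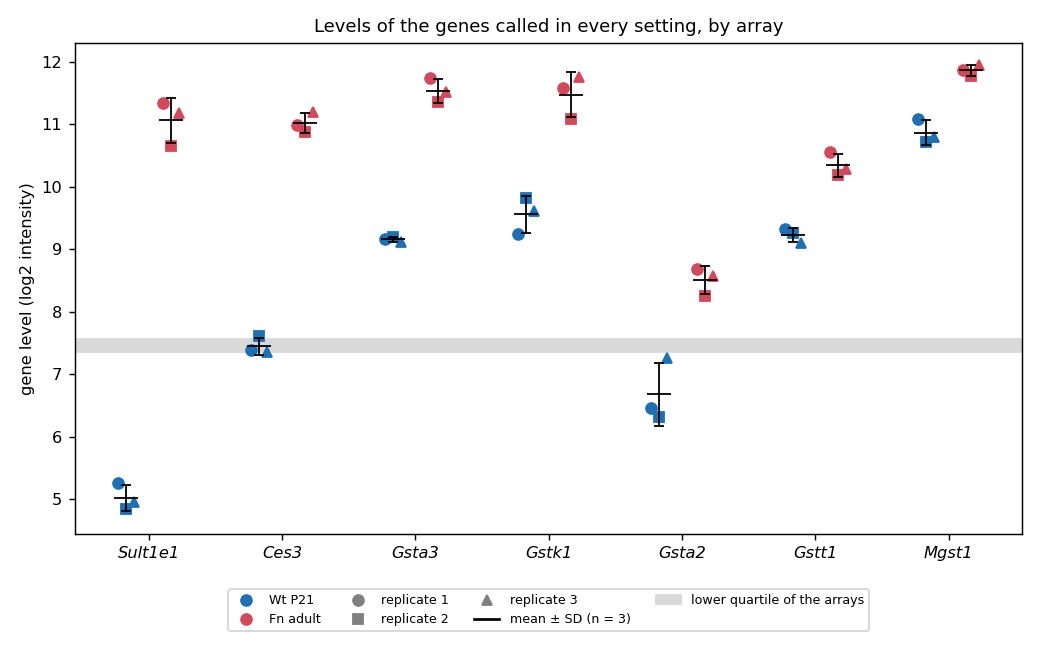
Gene level (log2 intensity) on each array for the 7 genes called in every setting, with the mean ± SD of 3 arrays in black and the range of the arrays' lower quartiles in grey. The groups do not overlap for any of them, and Sult1e1 is far under the grey band on the Wt P21 arrays only.

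Among the alpha class transferases, which handle products of lipid peroxidation, all 3 measured genes rose. Gsta3, known in the mouse for conjugating aflatoxin epoxide, was at 9.16, 9.20 and 9.12 in Wt P21 and at 11.74, 11.36 and 11.51 in Fn adult. The lowest Fn adult array was well above the highest Wt P21 array, and the level was 5.19-fold higher (difference 2.38 ± 0.14 (SE), adjusted p = 4.72e-05), with 7 of 7 probe sets rising. Gsta2 was at 6.45, 6.32 and 7.25 in Wt P21, under the lower quartile, and at 8.69, 8.25 and 8.58 in Fn adult. Its difference was 1.83 ± 0.25 (SE, adjusted p = 0.00444), with 3 of 3 probe sets rising. Gsta1 has no probe set of its own. The 4 probe sets that name Gsta1 and Gsta2 together rose too, by 1.20 to 1.37, from median levels of 10.85, 11.09 and 10.61 to 12.21, 12.02 and 12.13, and how the signal divides between these copies is uncertain. Gsta4, which clears 4-hydroxynonenal, was at 12.52, 12.22 and 12.11 in Wt P21 and at 12.82, 12.80 and 12.91 in Fn adult. This smaller difference of 0.56 ± 0.14 (SE, adjusted p = 0.0458) did not pass without Wt P21 replicate 2 (adjusted p = 0.10) or without any 1 of the Fn adult arrays (0.13 to 0.17).

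The single kappa gene, Gstk1, an enzyme of mitochondria and peroxisomes, was at 9.24, 9.82 and 9.61 in Wt P21 and at 11.58, 11.08 and 11.76 in Fn adult. The groups did not overlap, and the level was 3.78-fold higher (difference 1.92 ± 0.21 (SE), adjusted p = 0.00181), with 10 of 11 probe sets rising.

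The mu class held 7 genes, 3 of which rose, by 1.46-fold to 1.62-fold. Gstm1 was at 13.09, 13.18 and 12.85 in Wt P21 and at 13.70, 13.66 and 13.84 in Fn adult (difference 0.69 ± 0.13 (SE), adjusted p = 0.0183). Gstm2 was at 12.67, 12.73 and 12.46, and at 13.23, 13.17 and 13.35 (difference 0.63 ± 0.13 (SE), adjusted p = 0.0232). Gstm4 was at 9.35, 9.54 and 9.36, and at 10.02, 9.93 and 9.94 (difference 0.54 ± 0.12 (SE), adjusted p = 0.0299). All 3 were higher in every Fn adult array than in any Wt P21 array, and they are neighbours at one end of the mu cluster on chromosome 3, where the members run in the order Gstm5, Gstm7, Gstm6, Gstm3, Gstm2, Gstm1, Gstm4. Each of these calls was lost without any 1 of the Fn adult arrays, with adjusted p values of 0.066 to 0.094 for Gstm1, 0.076 to 0.11 for Gstm2 and 0.10 to 0.15 for Gstm4, and that of Gstm4 also without Wt P21 replicate 1 (0.067). The other 4 mu genes ran from −0.22 for Gstm5, a form known from rodent testis and brain, to 0.31 for Gstm7, and did not pass. Mu genes are similar in sequence, and whether their probe sets read more than 1 copy was not tested. A single probe set names both Gstm3 and Gstm6, with a difference of 0.076.

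Among the 4 theta genes, Gstt1, which acts on small halogenated compounds, was at 9.32, 9.26 and 9.10 in Wt P21 and at 10.55, 10.19 and 10.28 in Fn adult. It was 2.16-fold higher with no overlap (difference 1.11 ± 0.14 (SE), adjusted p = 0.00343), and 10 of 12 probe sets rose. Its neighbour Gstt4 differed by 0.64 ± 0.47 (SE, adjusted p = 0.43), since Wt P21 replicate 3 stood at 9.58 against 7.60 and 7.61 on replicates 1 and 2, and the Fn adult arrays at 8.78 to 9.001 lay between. Without Wt P21 replicate 3 the difference of Gstt4 was 1.29 (adjusted p = 0.000552), and that of Gstt2 was 0.55 (adjusted p = 0.0382) against 0.38 (adjusted p = 0.22) with it. In that setting 18.6% of all genes passed, against 8.98% with all arrays. Gstt3 did not pass either (−0.33). Of the omega genes, whose enzymes reduce dehydroascorbate, Gsto1 was at 8.42, 8.20 and 8.44 in Wt P21 and at 9.29, 9.002 and 8.95 in Fn adult (difference 0.72 ± 0.14 (SE), adjusted p = 0.0197). Its call was lost without Wt P21 replicate 2 (adjusted p = 0.055) or without any 1 of the Fn adult arrays (0.063 to 0.11). Gsto2, next to it on chromosome 19, went the other way in its mean (−0.41, adjusted p = 0.33), with 11.10, 10.75 and 11.82 in Wt P21 and 10.69, 10.92 and 10.84 in Fn adult. Gstm5, Gstt3, Gstt4 and Gsto2 had their highest value on Wt P21 replicate 3. This was so for 9 of the 50 members, for 31.9% of all genes and for 7 of the 14 spermatid markers.

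**Figure D3:**
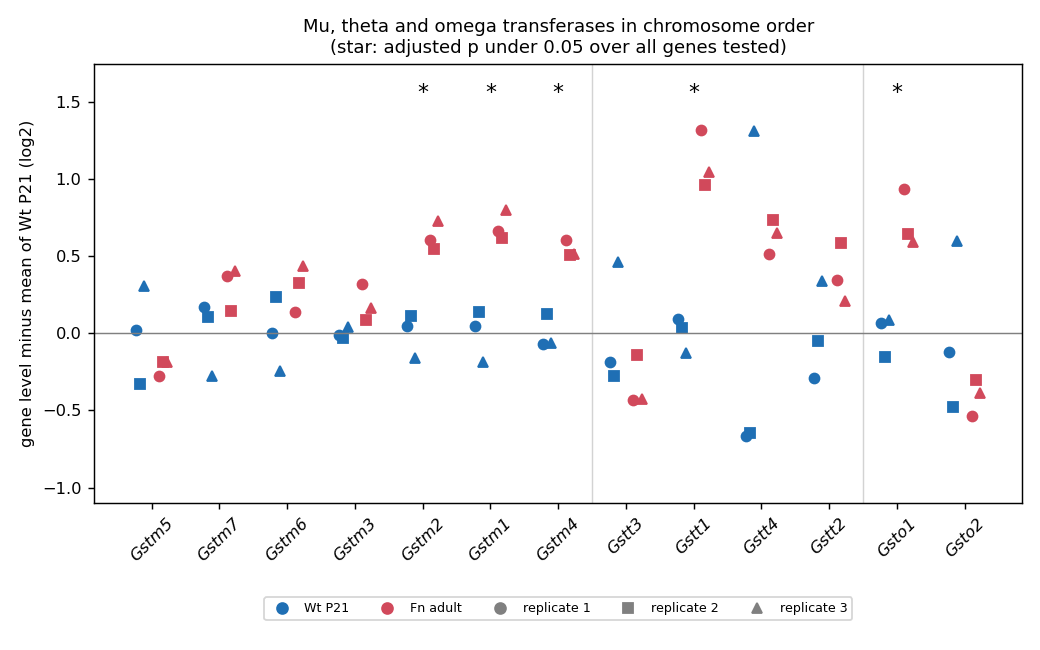
Gene level on each array minus the mean of the Wt P21 arrays (log2) for 13 mu, theta and omega genes in chromosome order, with grey lines between the clusters and a star for an adjusted p under 0.05. Gstm2, Gstm1 and Gstm4 lie side by side, and the Wt P21 triangle of replicate 3 is the highest point for Gstm5, Gstt3, Gstt4 and Gsto2.

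The pi genes Gstp1 and Gstp2 had 2 probe sets each and are not members. Of the 6 probe sets naming both, 3 rose, and their differences ran from 0.32 to 1.20. Of Gstp1's own probe sets, 1 rose by 0.92 (adjusted p = 0.0189) and the other differed by 0.91 without passing (adjusted p = 0.084).

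Microsomal transferases are membrane proteins unrelated in fold to the cytosolic ones. Mgst1, which also acts as a glutathione peroxidase, was at 11.09, 10.72 and 10.79 in Wt P21 and at 11.87, 11.78 and 11.95 in Fn adult. The groups did not overlap, and the level was 2.00-fold higher (difference 1.00 ± 0.14 (SE), adjusted p = 0.00533), with 5 of 6 probe sets rising. Mgst3 was at 8.61, 8.35 and 8.84 in Wt P21 and at 9.01, 9.08 and 8.96 in Fn adult. Its difference of 0.42 ± 0.15 (SE, adjusted p = 0.12) passed only without Wt P21 replicate 3 (0.54, adjusted p = 0.0257).

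None of the 8 Ugt members, all of the Ugt2 cluster on chromosome 5, passed the limma test, also at an unadjusted p under 0.05 (0 of 8), and 0 of them passed at any setting. They lay under the lower quartile on all 6 arrays, and their differences ran from −0.34 for Ugt2b38 to 0.11 for Ugt2b34. Ugt2b38, with the largest of these, was at 5.01, 5.49 and 4.73 in Wt P21 and at 4.73, 4.92 and 4.56 in Fn adult, and the groups overlapped (adjusted p = 0.32). Of 21 probe sets shared within the Ugt2 family, 0 passed in the limma test of probe sets (2 at an unadjusted p under 0.05).

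The Ugt1a genes were read mainly through shared probe sets, since no Ugt1a gene had 3 of its own. In the mouse these genes arise from 1 locus by joining alternative first exons to a common end. Probe sets naming Ugt1a6a with the other Ugt1a symbols rose in 9 of 9 cases, by 1.89 to 2.71 (adjusted p over all probe sets 0.000548 to 0.00375). Their median levels were 9.70, 9.22 and 9.75 in Wt P21 and 12.06, 12.01 and 12.24 in Fn adult. Of 16 probe sets that name Ugt1a genes without Ugt1a6a, 8 rose, and the differences ran from −0.63 to 2.83. Over all probe sets with 1 symbol, 3.78% rose. Of the probe sets that name 1 Ugt1a gene alone, that of Ugt1a5 rose by 2.21 (adjusted p = 0.00586), that of Ugt1a2 rose by 1.28 (adjusted p = 0.0364), and those of Ugt1a9 (−0.015) and Ugt1a10 (−0.23) did not pass. These arrays do not say which Ugt1a transcript carried the shared signal.

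**Figure D4:**
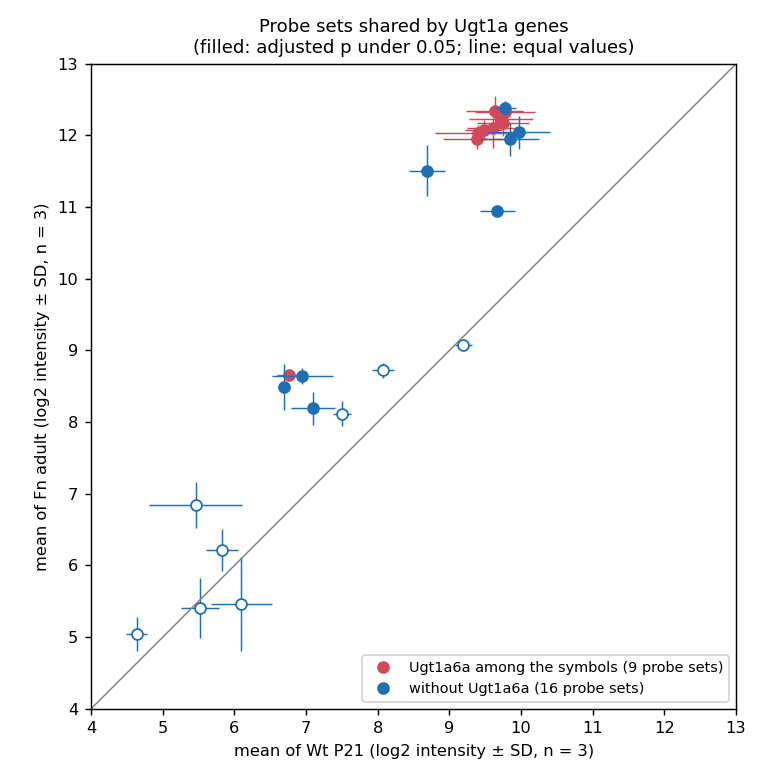
Mean log2 level of each of the 25 probe sets shared by Ugt1a genes, Wt P21 on the x axis and Fn adult on the y axis, with SD bars over 3 arrays and a line of equal values. The 9 probe sets that include Ugt1a6a (red) all lie above the line and are filled, while 8 of the 16 others (blue) are open.

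The sulfotransferases held the largest upward gene level difference of all genes tested, in the deposited scaling. Sult1e1, the estrogen sulfotransferase, known in the mouse testis from Leydig cells, was at 5.25, 4.85 and 4.95 in Wt P21 and at 11.34, 10.66 and 11.19 in Fn adult. The Wt P21 arrays lay under the lower quartile and the Fn adult arrays far above it, and the difference was 6.04 ± 0.20 (SE, adjusted p = 8.8e-06). All of its 8 probe sets rose, by 5.61 to 7.25. The difference was between 5.88 and 6.60 under every setting run. The brightness filters among these settings are no further support, since the gene and its kept probe sets pass them through Fn adult. The Leydig cell markers given above rose in 8 of 10 cases with a median difference of 1.18, the largest being Ptgds (3.85), Hsd17b3 (2.84) and Star (2.11). Their part in the difference of Sult1e1 was not tested.

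The members next to Sult1e1 in the RefSeq gene order on chromosome 5 did not move like it. Sult1b1, a thyroid hormone sulfotransferase, differed by 0.063 (adjusted p = 0.86). Its levels were 4.11, 4.10 and 4.46 in Wt P21 and 3.97, 4.37 and 4.52 in Fn adult, all under the lower quartile. Sult1d1, which sulfates catecholamines in the mouse, was at 4.51, 4.49 and 4.07 in Wt P21 and at 5.10, 4.96 and 5.19 in Fn adult, all under the lower quartile (difference 0.73 ± 0.16 (SE), adjusted p = 0.0264). Only 1 of its 10 probe sets rose, probe set 4309918 (2.74), and its splicing index, the probe set minus the gene level, also passed (2.01, adjusted p = 0.0343). The median of its probe set differences was 0.099. Its call was lost without any 1 of the Fn adult arrays (adjusted p 0.071 to 0.12) and when probe sets were averaged (0.31, adjusted p = 0.094).

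Sult1a1, the phenol sulfotransferase, was at 9.51, 9.70 and 9.62 in Wt P21 and at 10.16, 10.08 and 10.18 in Fn adult, a tight and separate pair of groups (difference 0.53 ± 0.12 (SE), adjusted p = 0.0299). It did not pass without Wt P21 replicate 1 (adjusted p = 0.067), without any 1 of the Fn adult arrays (0.097 to 0.15) or after quantile normalization (0.38, adjusted p = 0.12). Of the other 8 sulfotransferases, the cholesterol and pregnenolone enzyme Sult2b1 differed by 0.10, and Sult1c1, Sult1c2, Sult2a8 and the brain form Sult4a1 by −0.17 to 0.15. Sult5a1 differed by 0.35 and passed only without Wt P21 replicate 3 (0.46, adjusted p = 0.0464). Sult3a1 had the largest difference that did not pass, with 4.05, 3.88 and 4.03 in Wt P21 and 3.15, 3.65 and 3.80 in Fn adult (−0.45 ± 0.18 (SE), adjusted p = 0.15).

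Among the 12 carboxylesterases, 10 lay under the lower quartile on all 6 arrays, and only the gene under the array symbol Ces3 rose. It was at 7.39, 7.60 and 7.36 in Wt P21, near the lower quartile, and at 10.98, 10.88 and 11.19 in Fn adult. The difference was 3.57 ± 0.14 (SE, adjusted p = 1.36e-05), between 3.11 and 3.65 under every setting run. For the brightness filters this is no further support, since the gene and some of its probe sets pass them through Fn adult. Of its 16 probe sets, 15 rose, by 1.87 to 4.63. The other, probe set 4972565, was at 10.70, 9.91 and 9.95 in Wt P21 and at 9.66, 10.08 and 9.996 in Fn adult, and its splicing index was the lowest of the members (−3.84, adjusted p = 0.0157). The symbol could stand for Ces1d, a triacylglycerol hydrolase of the endoplasmic reticulum, or for Ces3a, and the annotation used does not settle which.

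Both genes that fell were dim carboxylesterases. Ces1e, in the mouse the egasyn that holds beta-glucuronidase in the endoplasmic reticulum, was at 5.41, 5.38 and 5.59 in Wt P21 and at 4.59, 4.97 and 4.48 in Fn adult (difference −0.78 ± 0.16 (SE), adjusted p = 0.0209). Ces2e was at 6.69, 6.97 and 6.61, and at 6.19, 6.01 and 6.02 (difference −0.68 ± 0.14 (SE), adjusted p = 0.0220). The groups did not overlap for either gene, but both lay under the lower quartile on all 6 arrays and in the limma test 0 of their 15 and 17 probe sets fell (2 and 3 at an unadjusted p under 0.05). The gene level is the median over probe sets on each array, so different probe sets can set it on different arrays. For Ces1e its difference lay outside the range of all 15 probe set differences (−0.61 to 0.43), whose median was −0.20, and for Ces2e that median was −0.17. When probe sets were averaged instead, the differences were −0.19 (adjusted p = 0.32) and −0.22 (adjusted p = 0.24). That of Ces2e was −0.54 (adjusted p = 0.056) with shared probe sets added and −0.19 (adjusted p = 0.51) with probe sets above the lower quartile alone. The call of Ces1e was also lost without Wt P21 replicate 2 (adjusted p = 0.0503), Fn adult replicate 1 (0.11) or Fn adult replicate 3 (0.097), and that of Ces2e without any 1 of the Fn adult arrays (0.080 to 0.10). Ces1e, Ces2e, Sult1d1, Gstm3 and Sult1e1 were the 5 members whose gene level difference was more than 0.3 from the median of their probe set differences.

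Ces1c, the esterase that mice secrete into plasma, had the largest carboxylesterase difference that did not pass, with 5.20, 5.85 and 4.998 in Wt P21 and 4.72, 4.86 and 4.82 in Fn adult (−0.55 ± 0.21 (SE), adjusted p = 0.14). It passed without Wt P21 replicate 3 (−0.73, adjusted p = 0.0304). Its probe sets disagreed: probe set 4849409 rose from 7.30, 6.54 and 6.80 to 10.29, 10.22 and 10.62 (3.50, splicing index 4.05, adjusted p = 0.0273), and 9 of 14 were lower. Ces1g did not pass at the gene level (0.13, adjusted p = 0.54), yet 3 of its 16 probe sets rose and 2 fell. Its probe set 4558165 went from 5.80, 5.84 and 6.29 to 9.94, 9.64 and 10.40 (4.01, splicing index 3.89, adjusted p = 0.00755). Ces1g did pass, upward, when probe sets were averaged and with probe sets above the lower quartile alone (differences up to 2.19). Probe set 4558165 passes that filter through its Fn adult values, so the filtered value is no test of direction. Ces1a had 3 rising probe sets of 18 and Ces1f 1 of 16, with gene level differences of −0.015 and 0.25. Whether these probe sets read the RNA of the rising Ces3 gene, which belongs to the same family, was not tested. The 3 Ces2 genes that did not fall (Ces2, Ces2a and Ces2g), Ces3b and Es31 had 0 of 74 probe sets past the limma test (8 at an unadjusted p under 0.05) and gene level differences of −0.27 to −0.035. The 6 probe sets shared by Ces3b and Es31 did not pass either (1 at an unadjusted p under 0.05).

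**Figure D5:**
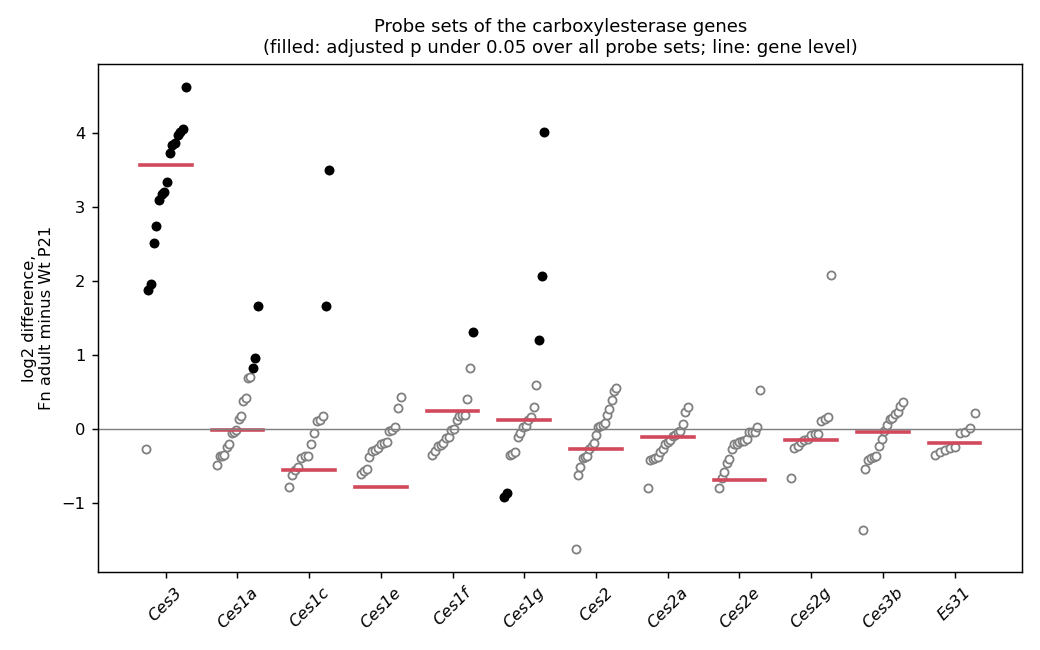
Log2 difference, Fn adult minus Wt P21, of each probe set of the 12 carboxylesterase genes, filled where the adjusted p over all probe sets was under 0.05, with the gene level difference as a red line. The probe sets of Ces3 lie high together apart from 1, a few probe sets of Ces1a, Ces1c, Ces1f and Ces1g stand above their gene, and the line of Ces1e lies under all its points.

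Over all members, 90 of 518 probe sets passed, against 4.18% of all probe sets with 1 symbol. Of them 87 rose and 3 fell, against 3.78% and 0.402% of all. Of the 161 probe sets of genes that passed, 77 rose. Of the 357 probe sets of the other genes, 10 rose and 3 fell. The gene level is the median of these same probe sets, so part of this contrast is built in. The splicing index passed for 6 of 516 probe sets, 2 in Ces3, 2 in Ces1g, 1 in Ces1c and 1 in Sult1d1, and for 0.0673% of all.

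Genes that supply or accompany these enzymes were counted from lists, where 8.07% of all genes rose and the median difference over all genes was 0.07. Of 23 genes of glutathione supply and redox, 3 rose: the cystine carrier Slc7a11 (1.74, adjusted p = 0.00781), the glutathione conjugate exporter Abcc1 (0.94, adjusted p = 0.0137) and the peroxidase Gpx1 (0.86, adjusted p = 0.00541). Of 17 genes of the Nrf2 pathway, 4 rose with a list median of 0.41, among them the quinone reductase Nqo1 (1.63, adjusted p = 0.00114) and the pentose phosphate enzymes Tkt (1.40, adjusted p = 0.0183) and Taldo1 (0.75, adjusted p = 0.0274). For sulfate, 1 of 11 genes rose, Papss2, which makes the sulfate donor (0.52, adjusted p = 0.0464). For glucuronate, 2 of 8 rose, the nucleotide sugar carrier Slc35d2 (1.06, adjusted p = 0.00507) and the glucuronidase Gusb (0.68, adjusted p = 0.0446). No gene of these lists fell. The median differences of the glutathione, sulfate and glucuronate lists were 0.12, 0.40 and 0.44. Those of the hydrolase, acyl and methyl conjugation, and receptor lists below were 0.36, 0.47 and 0.21.

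Of 16 other ester and epoxide hydrolases, 6 rose. The epoxide hydrolase Ephx1 (2.33, adjusted p = 4.2e-05), the lactonase Pon3 (1.31, adjusted p = 0.00116) and the cholesteryl ester hydrolase Nceh1 (1.07, adjusted p = 0.00581) had the largest differences. Of 14 other acyl and methyl conjugation enzymes 4 rose, with the acetyltransferase family genes Nat8f5 (3.09, adjusted p = 0.000164) and Nat8 (2.02, adjusted p = 0.00116) and the acyl-CoA synthetase Acsm3 (2.30, adjusted p = 0.000937) at the top. Of 9 xenobiotic receptors, 2 rose, Rxra (0.67, adjusted p = 0.0137) and the glucocorticoid receptor Nr3c1 (0.54, adjusted p = 0.0344). The hepatocyte markers showed 0 rises of 7 and 1 fall, Ahsg. Of the Leydig cell markers 8 of 10 rose, and of the macrophage markers 8 of 12. Their part in the differences of these lists and of the members was not tested.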

How the data were processed

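Total RNA of whole testes was extracted with Trizol, amplified as cDNA, labelled with biotin and hybridised to 6 Affymetrix Mouse Exon 1.0 ST arrays, 3 per group. The labels call the samples biological replicates, and the methods speak of different RNA preparations. How many animals each array stands for is not given in the sources used here, so p values measure the spread between these preparations. The values deposited by the authors are log2 intensities of 229581 probe sets on each array. Their background correction and normalization are not given in the sources used here. The submitters' processing notes name build mm8, and the methods name the EASANA system of GenoSplice. Array medians differ, so quantile normalization was run as an alternative.

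Probe sets were named from the platform annotation, 209279 with 1 symbol and 4446 with several. Symbols were brought up to date with a RefSeq gene list (GRCm38.p6): of 16380, 14190 needed no change, 2145 had a new symbol, 39 had several and 6 found no match. A gene's level on an array is the median log2 value of at least 3 probe sets carrying its symbol alone. Differences were tested in limma 3.58.1 (lmFit and eBayes, R 4.3.3, with statmod 1.5.0 and version 1.17.8 of data.table). Tests were two-sided, and p values were adjusted by Benjamini-Hochberg over all genes or probe sets, with a threshold of 0.05. For the splicing index, 1062 probe sets equal to their gene level on every array were left out. The fit was tested on simulated data. The number of arrays limits the precision.

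The members and lists were chosen with earlier results of these data known. Every member is accounted for. Per-array values are given for each member past the threshold and for the largest difference not past it in each family. Up to 3 genes of each list with the largest differences past the threshold are named, and the probe sets named are those with called splicing indices of largest size. Ces1g, Gsto2 and Gstt genes given beside this rule were chosen after their values were seen. The alternatives were quantile or median scaling, 1 array left out at a time, a replicate block, a variance trend with robust eBayes, averaged probe sets, filters on dim probe sets and genes, at least 5 probe sets, shared probe sets added, and a size of 1.5-fold. Protein sequences were not analysed here.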

Additional observations from a re-analysis of the deposited data

How the results depend on the processing

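The number of members called, 16, was 10 with each array shifted to the same median (8 of them higher, against 14), and 7 to 21 when 1 array was left out. Over all genes, 8.98% were called with all arrays and 8.75% with that shift. With 1 array left out, the share ran from 2.14% (Fn adult replicate 1) to 18.6% (Wt P21 replicate 3, the setting with 21 members). Leaving out 1 array gave 7 to 18 members higher, 0 to 3 lower, and 0 to 7 splicing indices called, against 6. The number of member probe sets called, 90 with all arrays, was then 46 to 113. It was 59 or fewer without Wt P21 replicate 2 or an Fn adult array. With the replicate number as a block (6.68% of all genes called), 11 members were called, 9 of them higher, and 1 splicing index. The 5 members lost there were Gsta4, Gstm2, Gstm4, Sult1a1 and Sult1d1 (adjusted p 0.0513 to 0.079). Deviations of same-numbered arrays correlated at 0.24, −0.11 and −0.017, and those of differently numbered arrays at −0.20 to 0.22. With 3 arrays per group these values cannot decide whether the numbers pair the arrays. With eBayes trend and robust, 10 splicing indices were called. The 2 members called lower became 0 with the mean of probe sets, with bright probe sets and with bright genes alone, and 1 with shared probe sets added. The median member difference, 0.11, was 0.40 with bright probe sets and 0.54 with bright genes, which keep 32 and 25 members (both filters use the mean over all 6 arrays, so that Sult1e1, dim in Wt P21, passes both through Fn adult, and part of this rise can be built in), and −0.061 with arrays shifted to the same median. That shift moved the median of all genes from 0.067 to −0.0997, and quantile normalization to −0.05. The calls over all genes then split 702 higher and 629 lower, and 826 and 452, against 1227 and 139. The cause of these shifts was not tested.

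Ces1c was 1.36 with bright probe sets, but 2 of the 4 probe sets kept pass the filter mainly through their Fn adult values, so that this value is no test of its direction. The other sign changes touched only differences that did not pass. With arrays shifted to the same median these were Ces1g (−0.039), Sult1b1 (−0.10), Sult1c1 (−0.12), Sult1c2 (−0.015), Sult2a8 (−0.16), Sult2b1 (−0.064), Ugt2a1 (−0.12) and Ugt2b34 (−0.058). With quantile normalization they were Sult1c1 (−0.024), Sult2a8 (−0.049) and Ugt2a1 (−0.0033). With the mean of probe sets they were Ces1a (0.21), Ces1c (0.12), Ces2g (0.051), Sult1b1 (−0.12), Sult1c1 (−0.086) and Ugt2b34 (−0.16). Ces1a was 0.30 with bright probe sets, under the same filter, and Ugt2b37 and Ugt2b5 were 0.087 and 0.22 with shared probe sets added. Leaving out 1 array at a time gave both signs for Ces1a (−0.11 to 0.036), Ces2a (−0.27 to 0.12), Ces3b (−0.13 to 0.048), Sult1b1 (−0.054 to 0.22), Sult1c1 (−0.11 to 0.17), Sult1c2 (−0.11 to 0.38), Sult2a8 (−0.15 to 0.12), Sult4a1 (−0.35 to 0.061), Ugt2a1 (−0.11 to 0.25), Ugt2a3 (−0.25 to 0.15), Ugt2b37 (−0.15 to 0.039) and Ugt2b5 (−0.28 to 0.0051).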
